A study of Caenorhabditis elegans with 16 samples.

Results

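Transcripts of the oxidative phosphorylation machinery were followed in starved first-stage (L1) larvae of the nematode Caenorhabditis elegans in 4 genotypes. In the fit of all 16 libraries the 40 genes examined changed little. With 4 libraries per genotype, only sdhd-1, cox-15, cox-18, nuo-1 and asb-1 passed the test in any comparison, and no fold change of theirs exceeded 0.50 on the log2 scale. More of the 40 passed in comparisons of strains with and without the daf-2 allele when wild-type replicates 2 and 3 were left out. That setting was chosen after the data were seen, and it removes the wild-type libraries in which these genes had the highest median levels. sdhd-1, a membrane anchor of succinate dehydrogenase, was higher in each of the 3 comparisons that set a strain with the daf-2 allele against a strain without it. Of 28 alternative analyses, 12 kept its call in the daf-2 mutant against wild type. For the triple mutant, 18 kept it against wild type and 26 against the irld mutant.

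The genes were chosen by symbol from the gene table of the authors' interaction analysis: the nuo, cox and atp series with a number, and 16 named subunits of complexes I, II, III and V. They came to 40 of the 46911 genes in the count files, and all 40 passed the filter on low counts, as 14058 genes did in all. The authors' table, with 12690 genes, was itself filtered on low counts, so this outcome was nearly set by the choice. By role the 40 held 34 subunits and 6 genes of complex IV assembly. Complex I had 7 members, complex II 4, complex III 6, complex IV 13 and complex V 10. All but atp-6, which lies on the mitochondrial DNA, are nuclear genes. The symbols nuo-3, cox-14 and cox-17 fit the same pattern but were not in that table. Their counts were 1 to 9 (nuo-3), 10 to 27 (cox-14) and 3 to 26 (cox-17) per library.

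Oxidative phosphorylation takes place in the inner mitochondrial membrane. Complexes I and II pass electrons from NADH and succinate to ubiquinone, complex III passes them on to cytochrome c, and complex IV reduces oxygen with them. Complexes I, III and IV pump protons, and complex V, the ATP synthase, makes ATP as protons flow back. Most subunits are encoded in the nucleus and imported, while a small set is encoded on the mitochondrial DNA, so that most complexes are built from products of both genomes. In C. elegans, lesions in several of these genes alter lifespan: isp-1 and nuo-6 mutants are long-lived, and mev-1 and gas-1 mutants are sensitive to oxidative stress and short-lived. L1 larvae that hatch without food stop development and live on maternal stores.

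The study crossed alleles of insulin-like signalling. Wild type was strain N2. The irld mutant was LRB444, with irld-39(duk1) and irld-52(duk17). These genes belong to a worm family of proteins with domains like those of insulin and EGF receptors. The daf-2 mutant was CB1370, with daf-2(e1370), a point mutation that reduces the function of the insulin/IGF receptor. The triple mutant carried daf-2(e1370), irld-39(duk1) and irld-52(duk17) and was sampled from a pair of independently made lines, LRB457 and LRB458, at 2 libraries a line. Embryos from bleached, well-fed adults hatched in S-basal without food at 20 °C. Larvae of all groups were starved and were collected 24 h after bleaching, 12 h after hatching, with 10000 whole larvae per biological replicate. Whole larvae pool all tissues, so fewer cells of a type and less RNA per cell cannot be told apart.

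The 16 libraries held 14033534 to 24903552 counts assigned to genes. irld-39 had 1 to 12 and irld-52 1 to 10 counts in any library, mutant or not, too few to check the labels. The daf-2 transcript, with 3649 to 10520 counts, passed the test in no comparison, and a point mutation need not alter it. Markers of larval tissues were present in every group: the summed level of 18 body wall muscle genes ran from 15929 to 33735 CPM (counts-per-million units) and that of 11 intestine genes from 9646 to 27752 CPM. Summed levels of 14 germ line genes (62.7 to 161 CPM) and of 6 adult vitellogenin genes (2.93 to 26.2 CPM) were low. The intestine sum was 14738 to 27752 CPM in wild type and 16776 to 21668 CPM in irld larvae, but 10392 to 14517 CPM in daf-2 larvae and 9646 to 12507 CPM in triple-mutant larvae. The aspartyl protease gene asp-1 made up most of the intestine sum. Its means were 17044 CPM in wild type, 15266 in irld, 8541 in daf-2 and 7487 in triple-mutant larvae. Of 10 tested intestine genes, 8 had log2 fold changes below 0 and 2 above 0 in daf-2 larvae relative to wild type. In triple-mutant larvae relative to wild type 5 passed the test as lower and 2 as higher, act-5 (1.25) and elt-2 (0.49). The sum does not stand for all intestine genes. The body wall muscle sum was 15929 to 31952 CPM in wild type and 29315 to 33735 CPM in the daf-2 mutant. The part of these marker levels in the results below was not tested.

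The 40 genes were mostly well expressed. Together they took 1.3% to 1.75% of gene counts, with means of 1.46% ± 0.178 in wild type, 1.38% ± 0.0372 in irld larvae, 1.6% ± 0.122 in daf-2 larvae and 1.6% ± 0.0466 in triple-mutant larvae (SD, n = 4). To compare genes with each other, CPM were divided by kilobases of exon, and medians over the 16 libraries are given. The median over the 33 nuclear subunits was 194, against 8.14 over the 14048 tested genes with a known length. Below 8.14 lay ucr-2.3 (6.07) and the assembly genes cox-10 (7.41), cox-11 (6.92), cox-18 (3.79) and cox-16 (2.9). Complex V stood highest, with a median of 571, followed by the complex IV subunits with 260, complex III with 247, complex I with 121 and complex II with 94.5. The 6 assembly genes of complex IV, which act on the complex as it forms and are not part of it, had a median of 7.17.

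**Figure D1:**
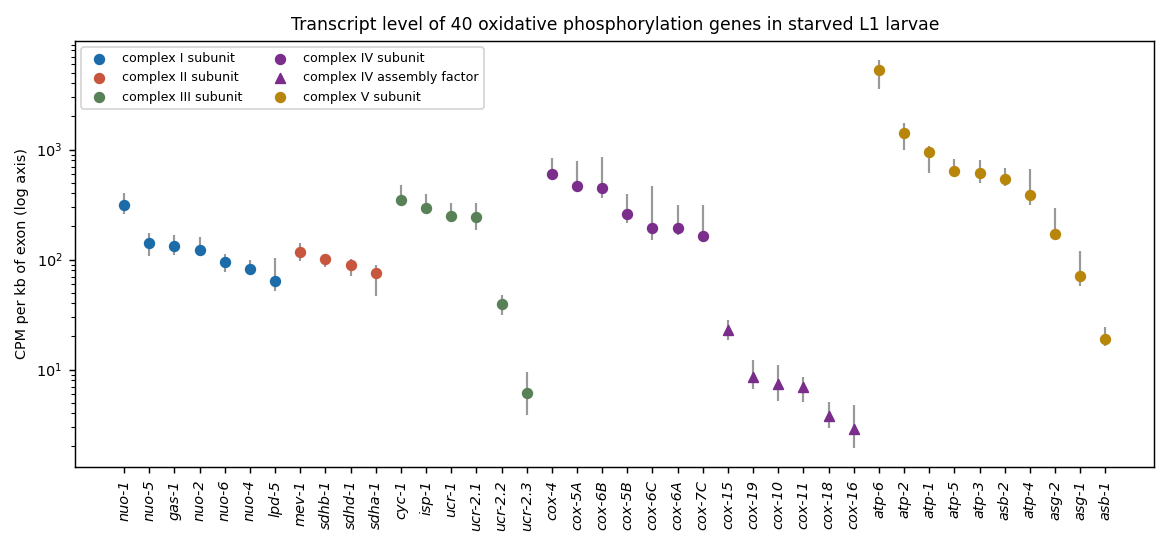
Level of each of the 40 genes in CPM per kilobase of exon on a log axis, grouped by complex and sorted within it. Points are medians and bars run from the lowest to the highest of 16 libraries; atp-6 (5297) stands highest and the 6 complex IV assembly genes (triangles) lie between 2.9 and 22.7.

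Within complex V the spread was widest. atp-6, subunit a of the proton channel, had 5297 CPM per kb, and of the nuclear genes the catalytic core led, with atp-2 (beta) at 1411 and atp-1 (alpha) at 951. atp-2 exceeded atp-1 by a factor of 1.39 to 1.66 in each library (the assembled core holds equal numbers of the pair). Peripheral stalk genes were lower, at 606 for atp-3 (OSCP) and 535 for asb-2 (subunit b). Its paralog asb-1, known as a germline form of subunit b, stood at 18.9 CPM per kb, the lowest of the complex. The ratio of asb-2 to asb-1 per kb had a median of 28.1 over the libraries (19.3 to 35.5). For subunit g, asg-2 exceeded asg-1 by 2.48 (2.13 to 2.7).

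Complex I ran from 312 CPM per kb for nuo-1, the FMN-binding subunit that takes electrons from NADH, down to 63.4 for lpd-5, an accessory subunit. In complex II all 4 genes were close together, from 116 for mev-1, the cytochrome b anchor, to 75.4 for sdha-1, the flavoprotein that oxidises succinate. In complex III, cyc-1 (cytochrome c1) led with 347. Its core proteins differed between paralogs: ucr-2.1 exceeded ucr-2.2 by a median factor of 6.06 and ucr-2.3 by 38.5 per kb, and ucr-2.3 (6.07) was the lowest gene of that complex. In complex IV, cox-4 was highest (597) and cox-7C the lowest subunit (163). Among its assembly genes cox-15, the heme A synthase, was highest (22.7). cox-16 was lowest (2.9), with 18 to 55 counts per library. Its level is uncertain, because 61.6% of its exon bases overlap C24G6.8 on the same strand.

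Wild-type replicates 2 and 3 deviated from the gene's own 16-library median in different ways. Replicate 2 lay above it for 34 of the 40 genes, a count also reached by daf-2 replicates 3 (35) and 4 (36). Its median deviation of 0.29 on the log2 scale was the largest of the 16 libraries, against 0.14 and 0.12 in those 2. In replicate 3 the deviation followed gene length. Its 13 members with under 700 exon bases lay above their medians by a median of 0.70, and its 12 members with over 1400 bases deviated by a median of -0.35. Across the 40 genes Pearson's r between this deviation and log2 exon length was -0.79 in replicate 3, 0.02 in replicate 2, and 0.40 and 0.28 in replicates 1 and 4. In the 12 mutant libraries it ran from -0.59 (LRB458 replicate 4) to 0.58 (irld replicate 4). Across 14048 genes it was -0.44 in replicate 3 and -0.25 in replicate 2, and between -0.08 and 0.13 in the other 14 libraries. These are correlations across genes of 1 library each, given as a description, and genes are not independent.

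cox-6C, a small accessory subunit of complex IV with 400 exon bases, shows the pattern. It had 61.9, 89.9, 187 and 73.7 CPM in wild-type replicates 1, 2, 3 and 4, and 60.1 to 89.4 CPM in the other 12 libraries. The long gene sdha-1 (2400 exon bases) went the other way, with 170, 176, 111 and 175 CPM in those wild-type replicates. The spread between wild-type libraries was therefore wide. The median member had an SD of log2 CPM of 0.279 in wild type, 0.0702 in irld larvae, 0.0883 in daf-2 larvae and 0.0868 in triple-mutant larvae. For all tested genes the medians were 0.302, 0.203, 0.2 and 0.177. Each count of members called below is given with all libraries and, where it differs, without these 2, a setting chosen after the data were seen. It leaves wild type with 2 libraries, replicates 1 and 4. The members' median deviation was -0.09 and -0.07 there, against 0.29 and 0.08 in replicates 2 and 3. Leaving out replicates 2 and 3 therefore by itself raises the members' median fold change against wild type. Such a rise is not separate support for an effect of an allele.

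**Figure D2:**
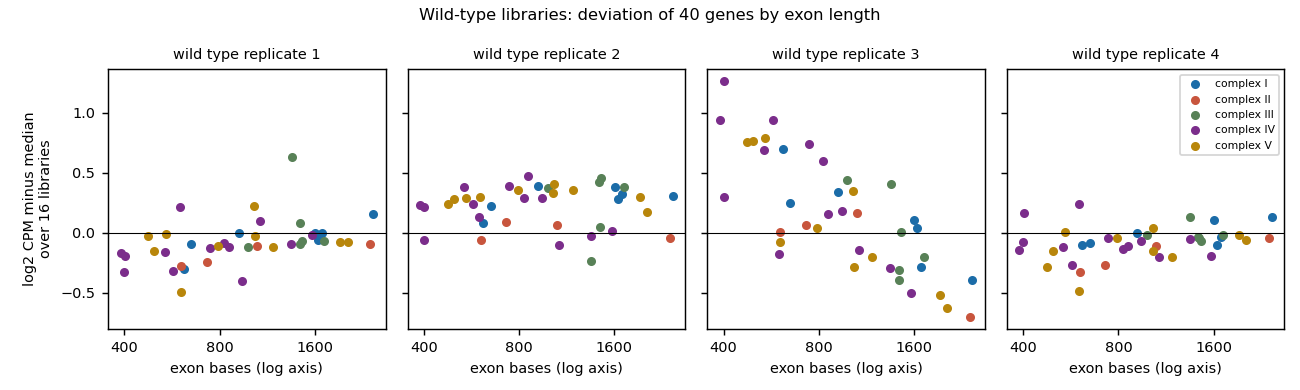
Deviation of each of the 40 genes (log2 CPM minus the gene's median over 16 libraries) against exon length on a log axis, in 1 panel per wild-type library and coloured by complex. In replicate 3 the short genes lie highest (up to 1.27) and the long genes lowest (down to -0.70); in replicate 2 nearly all points lie above 0.

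The first comparison asked what the irld alleles did in larvae with a wild-type daf-2 gene. None of the 40 genes was called higher or lower in the irld mutant against wild type by edgeR's quasi-likelihood test (Benjamini-Hochberg adjusted p under 0.05 over all genes). Of all tested genes 0.00711% were called higher and 0% lower. At an unadjusted p under 0.05, 11 members would have been called, as would 912 of all 14058 genes, and DESeq2 called 0 members. Log2 fold changes were below 0 for 34 of the 40, with a median of -0.15 against -0.00 over all tested genes. The 7 complex IV subunits lay lowest as a group (median -0.39), between -0.18 for cox-4 and -0.64 for cox-6C. Of these, 6 had an unadjusted p under 0.05. With those 2 wild-type libraries left out the members' median was -0.00, with 20 genes on each side of 0 and 0 at an unadjusted p under 0.05, and the complex IV subunits ran from -0.08 to 0.06.

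The second comparison asked what daf-2(e1370) did alone. In the daf-2 mutant against wild type, 2 of the 40 genes were higher and 0 lower, against 7.97% and 7.74% of all tested genes. A count of 2 in 40 is no more than that background share. The median log2 fold change of the members was -0.01, with 18 above 0 and 22 below, and 6 had an unadjusted p under 0.05, as had 4235 of all 14058 genes. The genes that rose were sdhd-1 of complex II and cox-15 of complex IV assembly.

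sdhd-1 lies on chromosome II at 11049144 to 11049913 (minus strand, WBcel235) and encodes a membrane anchor (SDHD type) that holds complex II in the inner membrane. It had 44, 51.2, 53.6 and 42.5 CPM in the wild-type libraries and 59.2, 53.2, 60.6 and 61.3 CPM in the daf-2 mutant. The lowest daf-2 library (53.2) lay just under wild-type replicate 3 (53.6), so the groups overlapped by these 2 libraries. The log2 fold change was 0.29 ± 0.09 (SE), with an adjusted p of 0.0284 by edgeR's quasi-likelihood test. The call was not stable. It ended when any of 10 libraries was left out singly (wild-type replicate 1 or 4, irld replicate 1 or 3, daf-2 replicate 1, 3 or 4, LRB458 replicate 1 or 4, or LRB457 replicate 3), at adjusted p of 0.0607 to 0.132 and fold changes of 0.24 to 0.29. Without wild-type replicates 2 and 3 it was 0.44, with an adjusted p of 0.00119.

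cox-15 (chromosome II, 11232756 to 11234952, minus strand) encodes heme A synthase, which makes the heme of complex IV. Its wild-type libraries had 28.7, 30, 24.9 and 29.5 CPM and its daf-2 libraries 35.9, 36.8, 38 and 37.6 CPM. Every daf-2 library lay above every wild-type library. The log2 fold change was 0.39 ± 0.10, with an adjusted p of 0.0122 by edgeR, and the call held with any 1 library left out. In the irld mutant cox-15 had 24.7 to 31.2 CPM and in the triple mutant 28.8 to 34.9 CPM, and the triple mutant did not pass the test against wild type (0.17, adjusted p of 0.251 by edgeR).

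The other members of complex II pointed the same way without passing the test. sdha-1 had 170, 176, 111 and 175 CPM in wild type, 171 to 179 CPM in the irld mutant and 195 to 213 CPM in the daf-2 mutant. Its log2 fold change against wild type was 0.34 ± 0.12 (adjusted p of 0.0621 by edgeR), the largest of the complex with all libraries. Without wild-type replicates 2 and 3 it was 0.22, below mev-1 (0.34) and sdhd-1 (0.44). mev-1 had 71.3, 89.8, 88.1 and 70.1 CPM in wild type and 89.1, 80.5, 103 and 86.5 CPM in the daf-2 mutant (0.17 ± 0.10, adjusted p of 0.266 by edgeR). sdhb-1, the iron-sulfur subunit, differed least (0.07 ± 0.09). The summed share of complex II in gene counts was 0.0383% ± 0.00131 in wild type, 0.0384% ± 0.00118 in irld larvae, 0.046% ± 0.00165 in daf-2 larvae and 0.0465% ± 0.00222 in triple-mutant larvae (SD, n = 4). This share is of raw gene counts, before the scaling between libraries that the fold changes use.

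In this comparison no gene of complexes I, III, IV and V other than cox-15 passed the test. The log2 fold changes of complex I ran from -0.20 for nuo-1 to 0.05 for gas-1, the subunit near the ubiquinone site. In complex III they ran from -0.24 for ucr-2.3 to 0.27 for ucr-2.2. isp-1, the Rieske iron-sulfur protein, was at -0.09 ± 0.12, and nuo-6, an accessory subunit of complex I, at -0.05 ± 0.10. In complex IV the 7 subunits lay between -0.34 and -0.02, and cox-16 was lowest of the assembly genes at -0.38 ± 0.24. In complex V, atp-4 (coupling factor 6) was lowest at -0.25 ± 0.16, and atp-1 and atp-6 were highest at 0.24 each.

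Leaving out wild-type replicates 2 and 3, picked after the members' levels in them were seen, changed this picture. The shift is in the direction that this choice gives by itself. The members' median in the daf-2 mutant against wild type became 0.19, with 35 above 0, 5 below and 19 at an unadjusted p under 0.05, and 7 were called higher and 0 lower, against 6.11% and 6.82% of all tested genes in that setting. Besides sdhd-1 and cox-15 they were sdha-1 (0.22), mev-1 (0.34), cox-6B (0.36), asb-2 (0.23) and atp-6 (0.58). cox-6B, a peripheral subunit of complex IV with 572 exon bases, had 205, 301, 490 and 212 CPM in wild type and 255, 256, 282 and 280 CPM in the daf-2 mutant. Its direction therefore rests on which wild-type libraries are used: with all 4 its log2 fold change was -0.17 ± 0.20. All 7 complex IV subunits lay above 0 without these libraries (0.19 to 0.36) and below 0 with them.

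**Figure D3:**
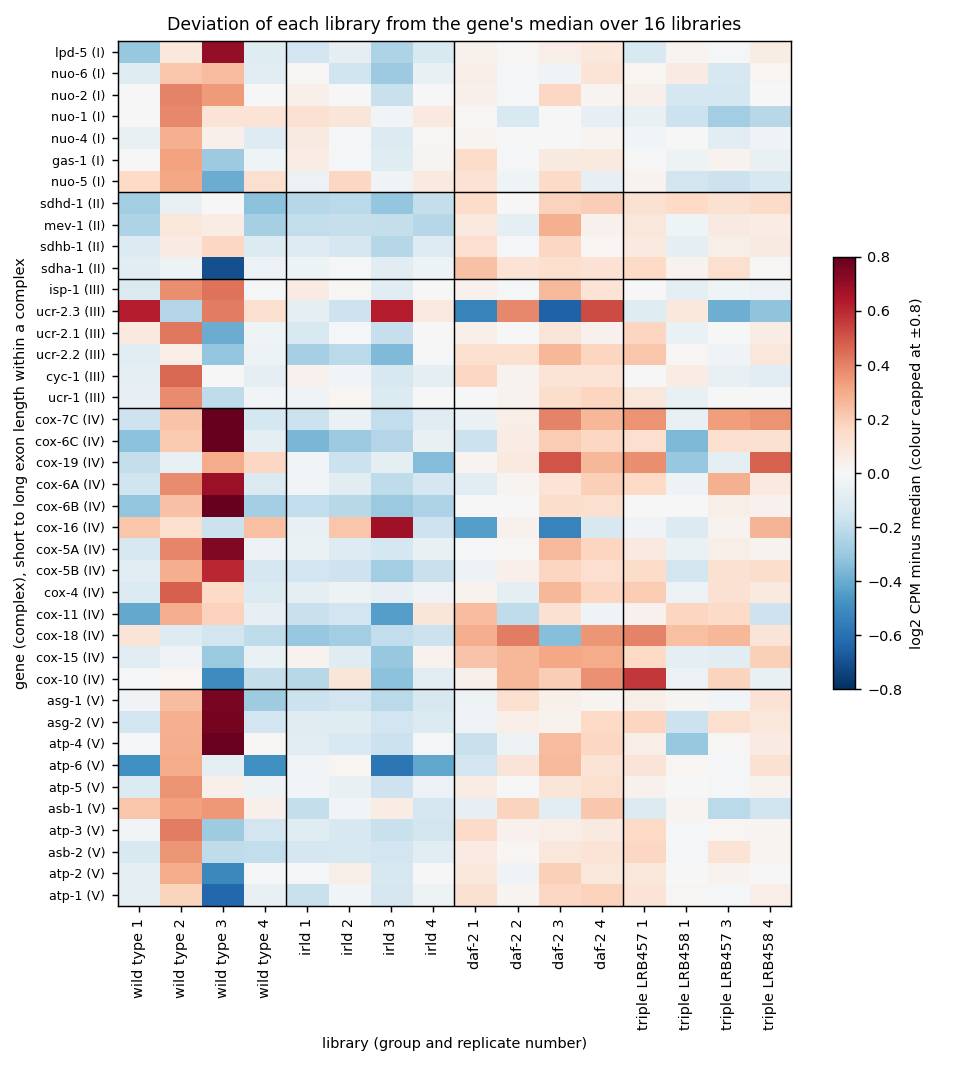
Deviation of each library from the gene's median over 16 libraries (log2 CPM, colour capped at ±0.8) for the 40 genes, sorted by complex and, within it, from short to long exon length; black lines separate complexes and genotypes. In wild-type replicate 3 short genes are red (up to 1.27) and long genes blue (down to -0.70), most genes of wild-type replicate 2 are pale to mid red (up to 0.48), and sdhd-1 is red in all daf-2 and triple mutant libraries except daf-2 replicate 2, which is near 0.

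The daf-2 allele was also compared in larvae that carried the irld alleles. In the triple mutant against the irld mutant, 2 of the 40 genes were higher and 0 lower, against 9.8% and 8.64% of all tested genes. This comparison uses no wild-type library, although its test shares the estimate of spread with them. The median log2 fold change of the members was 0.14, with 31 above 0, against -0.01 over all tested genes. sdhd-1 had 45.6, 45.9, 43.2 and 46.7 CPM in the irld mutant and 58, 59.7, 58 and 59.5 CPM in the triple mutant. The groups were far apart relative to their spread. The log2 fold change was 0.37 ± 0.09, with an adjusted p of 0.00598 by edgeR, and the call held with any 1 library left out.

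cox-18 (chromosome IV, 1097453 to 1102980, plus strand), an inner-membrane insertase needed for complex IV, had 3.26, 3.32, 3.52 and 3.59 CPM in the irld mutant. In the triple mutant it had 5.37, 4.81, 4.9 and 4.35 CPM, all above the irld libraries. The log2 fold change was 0.50 ± 0.17, with an adjusted p of 0.0444 by edgeR, from 47 to 113 counts per library. This call ended when wild-type replicate 4, any irld library, daf-2 replicate 1, LRB457 replicate 1 or 3 or LRB458 replicate 1 was left out singly, at adjusted p of 0.0512 to 0.113 and fold changes of 0.45 to 0.54.

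All 7 complex IV subunits lay above 0 in the triple mutant against the irld mutant, from 0.11 for cox-5A to 0.39 for cox-7C, and none passed the test. All 4 genes of complex II did too, from 0.13 for sdha-1 to 0.37 for sdhd-1. mev-1 had 73.6, 74.4, 74.1 and 71.9 CPM in the irld mutant and 89.8, 82.5, 88.9 and 88 CPM in the triple mutant. These groups did not overlap, and its log2 fold change was 0.25 ± 0.10 (adjusted p of 0.0958 by edgeR). Complex I differed in sign among its members, from -0.25 ± 0.09 for nuo-1 to 0.14 ± 0.15 for lpd-5.

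With wild-type replicates 2 and 3 left out of the shared estimate of spread, the same fold changes gave 12 higher and 1 lower member, against 12.2% and 14.1% of all tested genes in that setting. The lower one was nuo-1. Higher were sdhd-1, mev-1, sdhb-1, ucr-2.2, cox-5B, cox-6A, cox-6B, cox-7C, cox-18, asb-2, asg-1 and atp-3. When only the 8 libraries compared were fitted, 8 were higher (sdhd-1, mev-1, ucr-2.2, cox-5B, cox-6B, cox-7C, cox-18 and asg-1) and nuo-1 was lower. Across these 3 choices of the libraries that set the spread, the number of members called ranged from 2 to 13, with the fold changes of the named genes the same to 2 decimals.

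**Figure D4:**
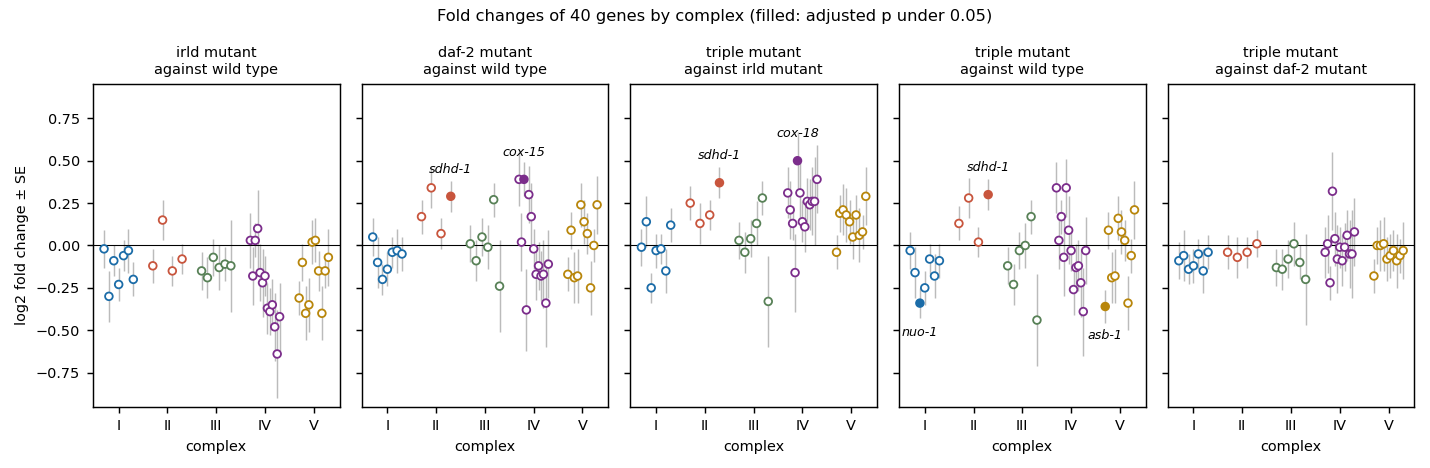
Log2 fold change ± SE of each of the 40 genes by complex in 5 comparisons; filled points passed the test (adjusted p under 0.05). sdhd-1 is filled in 3 panels (0.29, 0.37 and 0.30), and no point is filled for triple-mutant against daf-2 larvae. Against wild type in the irld mutant the complex IV subunits lie low (down to -0.64), while its assembly genes cox-10, cox-15 and cox-16 lie above 0.

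In the triple mutant against wild type, 1 of the 40 genes was higher and 2 were lower, against 10.1% and 10.4% of all tested genes. Scaling libraries by all their reads gave 3 higher and 1 lower. sdhd-1 was higher, at 0.30 ± 0.09 (adjusted p of 0.0209 by edgeR), and all 4 triple mutant libraries (58 to 59.7 CPM) lay above the wild-type libraries (42.5 to 53.6 CPM). Its call ended without wild-type replicate 1 or 4, LRB458 replicate 1 or 4 or LRB457 replicate 3, at adjusted p of 0.0577 to 0.0652 and fold changes of 0.25 to 0.31.

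nuo-1 (chromosome II, 11097837 to 11100146, plus strand) was lower. It had 499, 652, 539 and 540 CPM in wild type, 545, 535, 492 and 529 in irld larvae, 502, 459, 501 and 478 in daf-2 larvae and 480, 443, 413 and 429 in triple-mutant larvae. The triple mutant libraries lay below all wild-type libraries, at a log2 fold change of -0.34 ± 0.09 (adjusted p of 0.0184 by edgeR). The other 6 genes of complex I lay between -0.25 and -0.03. The call for nuo-1 ended without wild-type replicate 2, LRB457 replicate 3 or LRB458 replicate 4, at adjusted p of 0.0506 to 0.0758 and fold changes of -0.32 to -0.25.

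asb-1 (chromosome III, 4594543 to 4595821, minus strand) was lower too. It had 22.7, 24.4, 24.7 and 19.9 CPM in wild type and 17.9, 19.7, 16.7 and 17.3 CPM in the triple mutant, where the highest library (19.7) lay just under the lowest wild-type library (19.9). The log2 fold change was -0.36 ± 0.10 (adjusted p of 0.0217 by edgeR), and in the irld mutant (16.9 to 20.2 CPM) it was -0.31 ± 0.10 without passing the test. Its call ended without wild-type replicate 2, LRB457 replicate 3 or LRB458 replicate 4, at adjusted p of 0.0541 to 0.0902 and fold changes of -0.33 to -0.32. Its somatic paralog asb-2 was at 0.09 ± 0.11. asb-1 is known from the germ line. The sum of the 14 germ line genes was 62.7 to 116 CPM in wild type and 105 to 118 CPM in the triple mutant. These 14 had 0 calls in any of the 6 comparisons (1 at an unadjusted p under 0.05 in this one). Of all tested genes 10.1% were higher and 10.4% lower in this comparison, so 0 of 14 says little. The part of the germ line in the level of asb-1 was not tested.

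Without wild-type replicates 2 and 3, 6 members were higher and 0 lower in the triple mutant against wild type, against 6.69% and 9.25% of all tested genes in that setting. Higher were sdhd-1 (0.44), mev-1 (0.30), cox-6B (0.31), cox-7C (0.41), asb-2 (0.23) and atp-6 (0.55). nuo-1 was then at -0.24 (adjusted p of 0.0529 by edgeR) and asb-1 at -0.25 (adjusted p of 0.155). The members' median moved from -0.05 to 0.14, again in the direction that leaving out those libraries gives by itself.

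**Figure D5:**
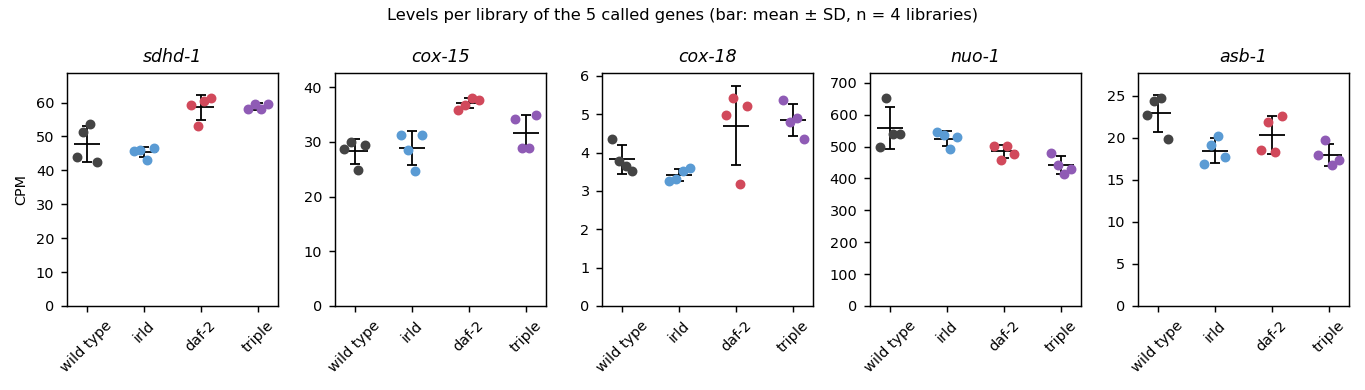
Levels in CPM of the 5 genes that passed the test in any comparison, with 1 point per library and the mean ± SD of each genotype (n = 4 libraries, axes from 0). sdhd-1 lies at 53.2 to 61.3 CPM in the daf-2 and triple mutant libraries and at 42.5 to 53.6 CPM in wild type and the irld mutant; cox-15 is highest in the daf-2 mutant.

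The irld alleles were last compared in larvae with the daf-2 allele. None of the 40 genes was called higher or lower by edgeR in triple-mutant larvae relative to the daf-2 mutant, against 0.0142% and 0.0782% of all tested genes; 1 (cox-15, at -0.22 ± 0.10) had an unadjusted p under 0.05, and DESeq2 called 0. The members' median was -0.05, between -0.22 and 0.32. The interaction, the effect of the irld alleles with daf-2(e1370) minus their effect without it, was called for 0 members in either direction, against 0.0142% and 0.0498% of all tested genes, with 0 members at an unadjusted p under 0.05 and 0 called by DESeq2. Its median over the members was 0.11 and all 7 complex IV subunits lay above 0 (0.17 to 0.59). Without wild-type replicates 2 and 3 the median was -0.05 and those subunits lay between -0.10 and 0.08. In the authors' deposited table, which codes the interaction with the opposite sign, 9 of 12690 genes had an adjusted p under 0.05, 0 of them members, and the lowest adjusted p of a member was 0.767.

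The 2 lines of the triple mutant gave like values for the called genes. sdhd-1 had 58 CPM in each LRB457 library and 59.7 and 59.5 CPM in the LRB458 libraries, and nuo-1 had 480 and 413 against 443 and 429 CPM. They differed more in some short genes, because LRB458 replicate 1 was low there. cox-6C had 60.5 CPM in that library and 84.6 to 85.3 CPM in the other 3, and cox-7C had 60.9 CPM against 80.2 to 81.6 CPM. With 2 libraries a line, the difference between lines was not tested.

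The other genes of the mitochondrial DNA were set beside atp-6. The 12 genes, which encode the hydrophobic cores of complexes I, III, IV and V, all lay above 0 in the daf-2 mutant against wild type, with a median of 0.51. Only ctb-1 (cytochrome b of complex III) was called, at 0.62 ± 0.17 (adjusted p of 0.0232 by edgeR), with means of 2499 ± 794 CPM in wild type, 2538 ± 389 in irld larvae, 3849 ± 493 in daf-2 larvae and 3691 ± 85.7 in triple-mutant larvae (SD, n = 4). In the triple mutant against the irld mutant 4 were higher and 0 lower: ctb-1 (0.54) and the complex I genes ndfl-4 (1.52), nduo-3 (0.93) and nduo-6 (1.04). Against wild type it was 3 (ctb-1 at 0.56, ndfl-4 at 1.26 and nduo-3 at 0.77). Of all tested genes 9.8% and 10.1% were higher in these comparisons of the triple mutant, and 7.97% in the daf-2 mutant against wild type. atp-6 itself had 2268, 3913, 3014 and 2274 CPM in wild type, 3139, 3222, 2137 and 2393 in irld larvae, 2875, 3426, 3823 and 3439 in daf-2 larvae and 3431, 3224, 3155 and 3476 in triple-mutant larvae. These groups overlapped widely, and atp-6 passed in none of the comparisons with all libraries.

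Without wild-type replicates 2 and 3, 11 of the 12 mitochondrial genes were higher in the daf-2 mutant against wild type, and all 12 in the triple mutant against wild type, with medians of 0.82 and 0.77. Of all tested genes 6.11% and 6.69% were higher in these comparisons in that setting. In the irld mutant against wild type all 12 then lay above 0 (median 0.31) with 0 called, 4 of them at an unadjusted p under 0.05. The libraries were made from polyadenylated RNA, and how far that selection sets the level of mitochondrial transcripts was not tested.

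A further 29 subunits of the complexes carry other names, most of them of complex I. In the daf-2 mutant against wild type 0 of them passed (4 at an unadjusted p under 0.05, median -0.12). In the triple mutant against the irld mutant 1 was higher (T02H6.11, at 0.33 ± 0.11, adjusted p of 0.0429 by edgeR). Against wild type 7 were lower in the triple mutant and 0 higher, led by nduf-7 (-0.51), ndub-2 (-0.36) and mai-2 (-0.55), a homolog of the ATP synthase inhibitor. Of all tested genes 10.4% were lower and 10.1% higher there, and 9.8% were higher in the triple against the irld mutant. With wild-type replicates 2 and 3 left out, 0 of the 29 were lower and 1 higher in the triple mutant against wild type. The shares of all tested genes were then 9.25% and 6.69%. The calls of the named genes therefore depended on those wild-type libraries. Whether they ended through smaller falls or through fewer libraries was not tested.

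The pathways around the chain were examined by lists. Among 25 genes of the citric acid cycle and pyruvate dehydrogenase, 5 were higher and 1 lower in the daf-2 mutant against wild type, 5 higher and 2 lower in the triple against the irld mutant, and 3 higher and 2 lower in the triple mutant against wild type. Of all tested genes 7.97% were higher and 7.74% lower in the first of these comparisons. The shares were 9.8% and 8.64% in the second and 10.1% and 10.4% in the third. With wild-type replicates 2 and 3 left out the counts in the list were 6 and 1, 7 and 4, and 5 and 3. The shares of all tested genes were then 6.11% and 6.82%, 12.2% and 14.1%, and 6.69% and 9.25%. mdh-2, mitochondrial malate dehydrogenase, had mean levels of 81.6 ± 5.34 CPM in wild type, 85.9 ± 4.7 in irld larvae, 128 ± 8.66 in daf-2 larvae and 134 ± 6.9 in triple-mutant larvae. Its log2 fold change in the daf-2 mutant against wild type was 0.65 ± 0.08 (adjusted p of 6.9e-05 by edgeR). aco-2, mitochondrial aconitase, rose by 0.83 ± 0.11 there (311 ± 54.5 to 554 ± 35.9 CPM, adjusted p of 0.000126) and the isocitrate dehydrogenase gene idh-1 by 0.62 ± 0.13. ogdh-2, an oxoglutarate dehydrogenase subunit, was lower in the triple against the irld mutant (-0.85 ± 0.13) and idhg-1, a regulatory subunit of the NAD-dependent isocitrate dehydrogenase, was at -0.43 ± 0.10. Complex II, which also works in this cycle, had smaller fold changes than mdh-2 and aco-2 in these comparisons (0.37 or less). Its medians of 0.23, 0.21 and 0.20 were above those of the list of 25 genes (0.12, 0.11 and 0.07), in the order given above. These differences were not tested.

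Among 10 genes for cytochrome c and ubiquinone synthesis, coq-1 was higher (0.44 ± 0.08) and coq-6 lower (-0.35 ± 0.08) in the daf-2 mutant against wild type. Both make ubiquinone, the carrier between complexes I or II and complex III. clk-1, another gene of that pathway, whose mutants are long-lived, had mean levels of 13.6, 10.7, 13.5 and 12.2 CPM in wild type and the irld, daf-2 and triple mutants and passed in none of the 6 comparisons. The cytochrome c gene cyc-2.1 was lower in the triple mutant against wild type (-0.39 ± 0.10). Of 19 assembly and maturation factors, nuaf-1 (complex I assembly) and nfu-1 (iron-sulfur clusters) were lower in the daf-2 mutant against wild type, by -0.42 ± 0.10 and -0.56 ± 0.14, and sft-1, the worm homolog of the complex IV assembly factor SURF1, was higher at 0.69 ± 0.22. These 3 calls ended when wild-type replicates 2 and 3 were left out, where 0 of the 19 were higher and 0 lower and the lowest fold change was -0.27. Of all tested genes 7.97% were higher and 7.74% lower in the daf-2 mutant against wild type with all libraries.

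Of 9 mitochondrial carriers and channels, ant-1.2, an ADP/ATP carrier, was higher in the daf-2 mutant against wild type (1.80 ± 0.58), and mpc-1, of the pyruvate carrier, and ucp-4 were lower (-0.81 ± 0.21 and -0.50 ± 0.15). With those 2 libraries left out, 0 of the 9 were higher and 1 lower there, and the lowest fold change was -0.55. In the triple mutant against the irld mutant ant-1.2 was higher (2.63 ± 0.61) and ucp-4 lower (-0.47 ± 0.15). Of 16 genes of mitochondrial gene expression and protein quality, the chaperonin gene hsp-60 was higher by 0.81 ± 0.17 in the daf-2 mutant against wild type and the protease gene spg-7 by 0.29 ± 0.09. Among 66 mitochondrial ribosomal genes 2 were higher and 7 lower in that comparison (4 and 1 with those 2 libraries left out), and 1 higher and 16 lower in the triple mutant against wild type (1 and 5). The corresponding counts for 82 cytosolic ribosomal genes were 0 higher and 4 lower (2 and 0), and 0 higher and 64 lower (0 and 14). Over all tested genes the shares were those given above, 7.97% higher and 7.74% lower in the daf-2 mutant and 10.1% and 10.4% in the triple mutant. Among 19 glycolysis genes, hxk-3, a hexokinase gene, was the one lower in daf-2 larvae relative to wild type (-0.40 ± 0.10) and 0 were higher; with those 2 libraries left out, 3 of the 19 were higher and 1 lower.

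Most pairs of nuclear subunits varied in the same direction from library to library. Over 528 pairs of 33 genes the median Pearson's r of log2 CPM across the 16 libraries was 0.40, and 0.56 for pairs within a complex. It was negative for 23.5% of the pairs. No other gene set was measured in this way. These values are a description: the points share libraries, genotype and depth. Over the 14 libraries left without wild-type replicates 2 and 3 the medians were 0.57 and 0.64, and 18.2% of the pairs were negative. cox-6C, a short gene, and atp-2, a long one, correlated at -0.48 over 16 libraries and at 0.56 over 14. For atp-1 and atp-2, both long, r was 0.93 and 0.81.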

How the data were processed

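PolyA mRNA of 16 libraries was analysed. Per the labels' protocols, TRIzol extraction, an ERCC spike-in and the NEBNext Ultra II kit were used. Alignment was with Bowtie 1.2.2, per the submitters' processing notes, and reads were counted with HTSeq 0.11.2, and the authors' interaction table came from edgeR 3.24.4. The strand setting is not given in the sources used here. The deposited files hold raw counts per gene (46911 genes and 5 summary entries, which held 40.4% to 42.4% of reads and were left out of library sizes). The authors' deposited interaction table gives each gene's log2 fold change, its F value (unit: score) and its p-value, raw and adjusted.

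From the deposited counts, genes reaching 1 CPM in 4 or more libraries entered 1 edgeR 4.0.16 quasi-likelihood fit of the 4 groups (R 4.3.3, TMM scaling, robust dispersion), with calls made where the Benjamini-Hochberg adjusted p, over 14058 genes, was under 0.05. The SE was taken as the absolute log2 fold change divided by the root of F. Group levels are TMM-scaled CPM. Exon lengths, overlaps and coordinates came from Ensembl 115 (WBcel235), an annotation later than the one used for counting. Scripts were tested on simulated data. DESeq2 1.42.0 served some of the alternatives, and the rest used edgeR alone. The members and the gene lists were chosen with earlier results of these data known. Genes were named if called, if highest or lowest in level or in daf-2 fold change within a complex, if paralogs or known mutants, or if among the 3 called genes of a list with the smallest adjusted p. The comparisons share control libraries, so their fold changes are not independent.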

Additional observations from a re-analysis of the deposited data

Results flagged for a closer look

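Of 160 sets of 4 libraries (40 genes in 4 genotypes), 7 held 1 library farther from the other 3 than Dixon's 95% criterion allows. The criterion passes about 1 in 20 independent sets by chance. Genes measured in the same libraries are not independent, so the count of 7 cannot be judged against that rate. In wild type, cyc-1 (695 CPM against 481 to 507) and asb-2 (808 CPM against 549 to 581) were high in replicate 2, and sdha-1 was low in replicate 3 (111 CPM against 170 to 176).

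The other sets lay in LRB458 replicate 1 of the triple mutant, which was low for cox-5B (194 CPM against 234 to 238), cox-6C (60.5 CPM against 84.6 to 85.3), cox-7C (60.9 CPM against 80.2 to 81.6) and atp-4 (169 CPM against 210 to 219). These are subunits of complexes IV and V. The cause was not tested.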

How the results depend on the processing

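None of the 7 calls of members changed sign in any of 28 alternatives. Of these calls, cox-15 in the daf-2 mutant against wild type was kept in 27 and sdhd-1 in the triple mutant against the irld mutant in 26, nuo-1 in 19, sdhd-1 in the triple mutant against wild type in 18 and in the daf-2 mutant against wild type in 12, asb-1 in 16 and cox-18 in 13. Adjusted p over these alternatives reached 1 for each, in the test against a 1.5-fold change.

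For the daf-2 mutant against wild type, 2 members were higher. DESeq2 gave 4, the setting with no filter 1, the 1.5-fold test 0 and only the groups compared 1. Leaving out either triple mutant line gave 1, and single libraries left out 1 to 4. With library sizes of all reads cox-15 (0.42), ucr-2.2 (0.30) and sdha-1 (0.38) were higher and sdhd-1 was not called. In the triple against the irld mutant, 2 members were higher. The counts were 1 with the replicate block, 4 with library sizes of all reads, 4 with DESeq2, 1 with no filter, 1 with edgeR's filterByExpr, 0 in the 1.5-fold test, 8 with only the groups compared, 1 without LRB457, 0 without LRB458, and 1 to 4 with single libraries left out. Lower there were 0; DESeq2 and the groups alone gave 1, and single libraries left out 0 to 1.

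For the triple mutant against wild type, 1 member was higher and 2 lower. The replicate block gave 1 lower, all reads 3 higher and 1 lower, and no filter, the 1.5-fold test, the groups compared alone and leaving out either line gave 0 and 0. With single libraries left out, 0 to 2 were higher and 0 to 3 lower. Replicate numbers did not pair libraries: over 24 same-numbered pairs the correlation of deviations ran from -0.462 to 0.308 (median 0.0315), and 9 exceeded 0.1. With the block, cox-18 (adjusted p of 0.0781 by edgeR) and asb-1 (0.0648) were no longer called and the block changed no other call of a member.

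Chosen after seeing the data, leaving out wild-type replicates 2 and 3 gave 7 higher for the daf-2 mutant against wild type, 12 higher and 1 lower for the triple against the irld mutant, and 6 higher and 0 lower for the triple mutant against wild type. The members' medians became -0.00 (irld mutant against wild type), 0.19 (daf-2 mutant against wild type), 0.14 (triple mutant against wild type) and -0.05 (interaction), of which the last 3 changed sign from -0.01, -0.05 and 0.11. Removing the trend with gene length in each library gave 3 higher, 6 higher, and 2 higher and 1 lower in those comparisons. Leaving out those wild-type libraries, where members had higher median levels, by itself moves the medians against wild type up and that of the interaction down. The cause of these differences was not tested. The interaction has no value for the groups compared alone, since it uses all 4. Genes with few counts, such as cox-16, limit what depth can show.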

Other observations

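Markers of other tissues moved as follows, by edgeR's quasi-likelihood test. Among 10 intestine genes 1 was higher and 3 lower in daf-2 larvae relative to wild type: act-5, the actin of the intestinal brush border, at 1.05 ± 0.15 (log2 fold change ± SE, adjusted p of 0.000141), and the carboxylesterase gene ges-1 (-0.84 ± 0.11), the metallothionein gene mtl-2 (-2.21 ± 0.34) and the aspartyl protease gene asp-1. Of 18 body wall muscle genes 2 were higher there, dim-1 (0.79 ± 0.12) and act-4 (0.39 ± 0.10). The shares of all tested genes there were 7.97% higher and 7.74% lower. Of 18 early embryo genes, 3 were lower in triple-mutant larvae relative to wild type: mex-5 (-1.52 ± 0.49), spn-4 (-1.38 ± 0.42) and oma-2 (-1.14 ± 0.35), all of which act in oocytes or early embryos. Of all tested genes 10.4% were lower there, and without wild-type replicates 2 and 3 the count of early embryo genes was 0. Of 18 neuronal genes, sbt-1 (-0.38 ± 0.12) and egl-21 (-0.42 ± 0.14), both of neuropeptide processing, were lower in that comparison (5 of the 18 without those 2 libraries). That setting gave 5 higher body wall muscle genes in daf-2 larvae relative to wild type and, in the intestine list, 1 higher and 4 lower. The shares of all tested genes were then 6.11% higher and 6.82% lower.

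Ribosomal genes with the smallest adjusted p in daf-2 larvae relative to wild type were mrps-30 (0.58 ± 0.08), mrps-5 (-0.47 ± 0.10) and mrpl-55 (-0.67 ± 0.15) of the mitochondrial ribosome, and rpa-2 (-0.45 ± 0.12), rps-28 (-0.45 ± 0.13) and rpl-26 (-0.36 ± 0.11) of the cytosolic one. Of 33 proteasome subunits, pas-2 was called, higher in the triple against the irld mutant (0.35 ± 0.12), where 4 were higher without wild-type replicates 2 and 3. The shares of all tested genes higher there were 9.8% with all libraries and 12.2% without those replicates.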
